A study of Mus musculus with 22 samples.

Results

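The 10 genes described here are *Fgf21* and 9 other genes of the integrated stress response, *Atf4*, *Atf5*, *Ddit3*, *Atf3*, *Trib3*, *Asns*, *Sesn2*, *Chac1* and *Gdf15*, out of 52636 genes in the table. *Fgf21* was chosen for its level in *Dicer* ΔMT/ΔMT against wild type, and the other 9 were chosen by their role as regulators or targets of the same response. RNA was sequenced from fully grown germinal vesicle (GV) oocytes of C57BL/6 mice, 22 libraries in 2 runs. The single-end run, whose labels give no age, held 3 libraries of wild type (*Dicer* WT/WT), 4 of *Dicer* ΔMT/ΔMT, 3 of *Dicer* SOM/SOM and 1 of the heterozygote *Dicer* ΔMT/WT. The paired-end run held RNAi mutants (*Mili* DAH/WT together with *Dicer* SOM/SOM, n = 2, 17 and 13 weeks of age), double mutants (homozygous for both alleles, *Mili* DAH/DAH with *Dicer* SOM/SOM, n = 4, 40, 35, 11 and 11 weeks), a piRNA mutant (*Mili* DAH/DAH, *Dicer* SOM/WT, n = 1, 16 weeks) and controls heterozygous for both alleles (*Mili* DAH/WT, *Dicer* SOM/WT, n = 4, 36, 38, 10 and 17 weeks). ΔMT removes the main retrotransposon promoter of the short oocyte Dicer. A second retrotransposon promoter downstream (MTA) can still drive a short Dicer, so ΔMT/ΔMT oocytes are not free of it. SOM lets only the full-length, somatic Dicer be made, from a knock-in present in every cell of the animal. DAH is a point mutant of the PIWI protein MILI without slicer activity. Every paired-end library thus carried at least 1 SOM and 1 DAH allele. The differing ages place most paired-end libraries in different females. For the single-end libraries and the double mutants of 11 weeks the labels do not say whether the animals differed, so the spread between these may be partly technical.

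In the integrated stress response, kinases that sense amino acid shortage, unfolded protein, heme shortage or double-stranded RNA phosphorylate the translation factor eIF2, general translation falls, and the mRNA of the transcription factor ATF4 is translated more. ATF4 then switches on genes for amino acid supply, such as *Asns*, and further regulators, such as *Ddit3* and *Trib3*. Since ATF4 is controlled largely at translation, its mRNA level is not a measure of its activity. FGF21 and GDF15 are hormones that stressed cells secrete, and FGF21 is best known from the liver. In mouse oocytes, endogenous small interfering RNAs made by the oocyte Dicer suppress some mRNAs and retrotransposons, and none of the 10 genes was on the study's list of predicted targets.

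The binding element of ATF4 with its C/EBP partners has the core TGATGNAA. This core was searched on both strands of RefSeq promoter windows (GRCm38.p6, 250 bases before to 50 after each transcription start), and 3.97% of 32851 windows held it, as did windows of 5 of the 10 genes. All 10 genes were matched to a window. The stretches upstream of the start with a match are printed because these genes share it, with the match in capitals. The match read on the reverse strand in *Fgf21*, *Chac1* and *Atf3*, with its first base at position -139, -193 and -110 from the start, and on the forward strand in *Asns*, at position -23. For *Atf3* the start is that of an internal RefSeq transcript. The stretch of *Fgf21* is chr7:45615491-45615740 (minus strand), that of *Asns* chr6:7693210-7693459 (minus strand), that of *Chac1* chr2:119351009-119351096 (plus strand) and that of *Atf3* chr1:191183396-191183483 (minus strand). In *Trib3* the match began at base 15 of the transcript. The windows of *Sesn2*, *Ddit3*, *Atf5*, *Gdf15* and *Atf4* did not hold these letters. A match is a description of the sequence, not a binding site shown in oocytes.
Fgf21: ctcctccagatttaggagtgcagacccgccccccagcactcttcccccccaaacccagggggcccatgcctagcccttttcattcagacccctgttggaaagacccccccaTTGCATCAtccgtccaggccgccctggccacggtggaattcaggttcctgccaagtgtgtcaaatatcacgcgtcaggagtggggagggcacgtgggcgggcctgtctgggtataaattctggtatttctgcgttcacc
Asns: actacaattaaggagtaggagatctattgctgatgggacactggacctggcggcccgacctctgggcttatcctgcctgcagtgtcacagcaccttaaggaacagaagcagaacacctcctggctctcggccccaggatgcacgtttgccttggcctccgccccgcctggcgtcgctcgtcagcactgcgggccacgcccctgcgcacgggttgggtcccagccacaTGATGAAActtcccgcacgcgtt
Chac1: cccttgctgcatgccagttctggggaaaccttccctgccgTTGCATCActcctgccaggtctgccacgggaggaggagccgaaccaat
Atf3: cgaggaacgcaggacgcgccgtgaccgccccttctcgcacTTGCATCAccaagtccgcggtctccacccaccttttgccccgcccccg

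Total counts lay between 6468380 and 90713013 per library (single-end run) and between 22928936 and 43540806 (paired-end run), and 3 counts, the level up to which a gene is taken as not detected, were worth 0.0352 to 0.432 CPM in the single-end run and 0.0677 to 0.130 CPM in the paired-end run. *Dicer* SOM/SOM replicate 3 had the lowest total. The paired-end libraries fell into 2 sets by *Gm42418*, a transcript that overlaps ribosomal RNA, with 4119.5 to 5515 CPM in 6 libraries (double mutants 1o and 1, both RNAi mutants, controls 1o and 3) and 299 to 567 CPM in 5 libraries. *Dicer1* checked the labels: its mean was 47.9% of wild type in *Dicer* ΔMT/ΔMT, 4.87% in *Dicer* SOM/SOM, and 9.06% and 9.01% of the controls in RNAi mutants and double mutants. Summed over 12 oocyte markers, libraries held 12046 to 15538 CPM, against 86.2 to 163 CPM for 14 granulosa markers, 6.07 to 69.9 for 8 theca markers, 81.0 to 150.4 for 9 immune markers and 49.5 to 84.0 for 7 blood and vessel markers. Of 12 oocyte markers tested, 2 were called lower in each of the 4 mutant groups and 1 higher in *Dicer* SOM/SOM. Their median log2 values were -0.03 in *Dicer* ΔMT/ΔMT, -0.002 in *Dicer* SOM/SOM, -0.10 in RNAi mutants and -0.02 in double mutants. Of 7 immune markers tested, 2 were called higher and 1 lower in *Dicer* SOM/SOM, 1 higher in RNAi mutants and 3 higher in double mutants. *Cd68* was among those higher in all 3, by 2.56, 1.75 and 2.16 on the log2 scale. The list as a whole did not move 1 way. Its median log2 values were 2.56, -0.37 and 2.02 in these groups, with 4, 3 and 6 of the 7 positive. Of 6 theca markers tested, 1 was called higher in *Dicer* ΔMT/ΔMT, and 1 higher and 1 lower in *Dicer* SOM/SOM, with median log2 values of 1.48 and 1.47, against -1.02 in RNAi mutants and 0.37 in double mutants. Of 12 granulosa markers tested, 1 was lower in *Dicer* ΔMT/ΔMT, RNAi mutants and double mutants each, and 1 was higher and 2 lower in *Dicer* SOM/SOM. Of 2 blood and vessel markers tested, 1, the vessel marker *Kdr*, was called lower in all 4 mutant groups. The other was not called, and its log2 value in RNAi mutants was positive. Over all genes, 8.06% were called higher and 7.30% lower in *Dicer* ΔMT/ΔMT, and 14.5% and 14.2% in *Dicer* SOM/SOM. In RNAi mutants these shares were 7.07% and 3.64%, and in double mutants 12.3% and 8.84%. The part of these cell types in the results was not tested. In these bulk samples, a change in RNA per oocyte and a change in the share of oocytes that express a gene cannot be told apart.

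Levels are given in CPM, each library's counts scaled to a common total, after TMM normalization, and changes as log2 fold changes ± SE of edgeR's quasi-likelihood test, called at an adjusted p under 0.05 over all genes tested in the run. Between genes, levels were compared per kb of exon length. In wild type, *Atf4* had 99.6 ± 3.73 CPM per kb (SD, n = 3), *Ddit3* 11.2 ± 1.94 and *Atf5* 8.30 ± 0.161. *Chac1* followed at 1.53 ± 0.507 CPM per kb, then *Sesn2* at 0.795 ± 0.252 and *Asns* at 0.722 ± 0.363, and the last 2 did not differ beyond their spread. *Atf3* had 0.403 ± 0.0590 CPM per kb, *Gdf15* 0.250 ± 0.1249 and *Trib3* 0.135 ± 0.0412, and *Fgf21* stood last at 0.0114 ± 0.0198. The paired-end controls gave 73.9 CPM per kb for *Atf4* and 0.00876 for *Fgf21*, with *Asns* (0.677) and *Sesn2* (0.656) in the reverse order.

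*Fgf21* (ENSMUSG00000030827.5) is a minus-strand gene at chr7:45613886-45615490 (GRCm38). It was at 0, 0 and 0.0326 CPM in the wild-type libraries, 2 counts in all, and at 0 in *Dicer* ΔMT/WT. In *Dicer* ΔMT/ΔMT it was at 1.06, 1.64, 2.73 and 1.76 CPM. These are the values that chose the gene and they are given as a description. In *Dicer* SOM/SOM it was at 0.675, 1.81 and 6.76 CPM, the last in replicate 3, where 3 counts are worth 0.432 CPM. Every library of both genotypes lay above every wild-type library, and the 2 genotypes overlapped. The pooled counts were 459 (*Dicer* ΔMT/ΔMT) and 196 (*Dicer* SOM/SOM).

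The rule that named *Fgf21* did not use the paired-end libraries, although earlier results of that run were also known when the genes were chosen. The 4 controls held 0, 0.0333, 0 and 0 CPM, 1 count in all, and the piRNA mutant held 0. The RNAi mutants held 2.16 and 0.597 CPM and the double mutants 2.02, 3.82, 0.832 and 2.30 CPM. All 6 *Dicer* SOM/SOM libraries of this run lay above all 4 controls. *Fgf21* rose in RNAi mutants (adjusted p = 3.16e-04) and in double mutants (adjusted p = 2.92e-05). With 1 count in all controls, the gene passed the filter on low counts only through the mutants in which it was high, so the call adds little to the values themselves. Pooled counts were 159-fold those of the controls in RNAi mutants (95% exact interval 27.6 to 6366) and 309.9-fold in double mutants (55.2 to 12274), and these intervals cover the counting error alone, as copies made by PCR could not be told from independent molecules. Between double and RNAi mutants, the log2 difference was 0.73 ± 0.62, not called (adjusted p = 0.9997).

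*Gdf15*, the other secreted factor, is on chromosome 8 from 70629393 to 70632456 and stayed under 1 CPM in every library. Wild type had a mean of 0.464 CPM, against 0.525 for *Dicer* ΔMT/ΔMT and 0.287 for *Dicer* SOM/SOM, where replicate 3 held 0. It was 0.293 CPM in controls, 0.251 in RNAi mutants and 0.253 in double mutants. Its groups overlapped in all 6 comparisons and none of its changes was called, the log2 values lying between -0.54 and 0.20 with standard errors up to 1.19. With errors of this size, only large changes of *Gdf15* could have been called.

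**Figure D1:**
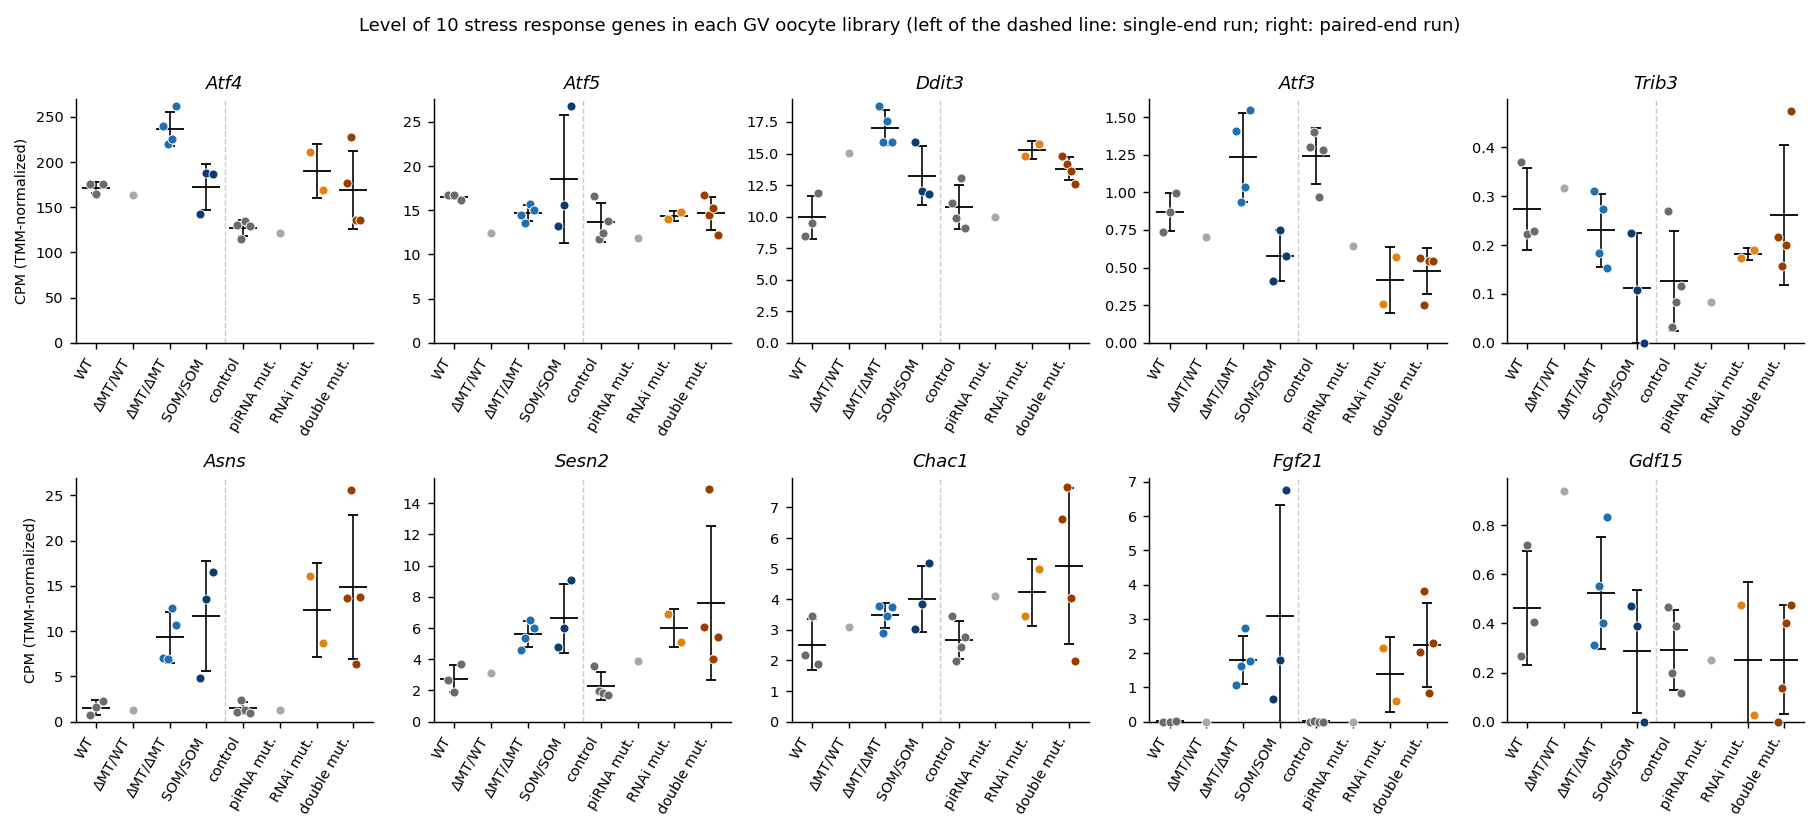
Level of each of the 10 genes in every library, in TMM-normalized CPM on linear axes from 0, with 1 point per library, the group mean as a horizontal line and the SD as a bar, which ends at the axis where it would reach below 0. *Fgf21* and *Asns* are high in each group homozygous for ΔMT or SOM (0.597 to 6.76 CPM and 4.83 to 25.6 CPM), *Atf4* is highest in *Dicer* ΔMT/ΔMT (220 to 262 CPM), and *Gdf15* and *Trib3* stay under 1 CPM in all groups.

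Of the enzymes and stress effectors, *Asns*, which makes asparagine and is a textbook ATF4 target, had the largest called changes. Its minus-strand gene is at chr6:7675169-7693254. Wild-type libraries held 0.725, 1.68 and 2.28 CPM, *Dicer* ΔMT/ΔMT 7.005, 6.97, 12.6 and 10.7 CPM, and *Dicer* SOM/SOM 4.83, 13.5 and 16.5 CPM. Both genotypes lay above wild type without overlap, and *Dicer* ΔMT/WT was within the wild-type range at 1.25 CPM. The rise of *Asns* was 2.58 ± 0.47 on the log2 scale for *Dicer* ΔMT/ΔMT (adjusted p = 0.00410), and for *Dicer* SOM/SOM it was 2.85 ± 0.50 (adjusted p = 0.00159). In the paired-end run, controls held 1.08, 2.43, 1.33 and 1.01 CPM, the piRNA mutant 1.28, RNAi mutants 16.0 and 8.71, and double mutants 13.6, 25.6, 6.398 and 13.8. *Asns* rose by 3.08 ± 0.46 in RNAi mutants (adjusted p = 5.50e-04) and by 3.35 ± 0.42 in double mutants (adjusted p = 6.27e-05), again without overlap with the controls. The rise of *Asns* kept its call in every alternative tried, among them leaving out each library in turn.

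*Sesn2* encodes sestrin 2, a leucine sensor that restrains mTORC1, and lies on chromosome 4 from 132492032 to 132510501. Its level was 2.68, 1.93 and 3.68 CPM in wild type, 4.58, 5.37, 6.54 and 6.02 in *Dicer* ΔMT/ΔMT, and 4.78, 6.03 and 9.06 in *Dicer* SOM/SOM. Neither mutant overlapped wild type. The rise of *Sesn2* was 1.02 ± 0.25 for *Dicer* ΔMT/ΔMT (adjusted p = 0.0193) and 1.20 ± 0.27 for *Dicer* SOM/SOM (adjusted p = 0.00746). The first call was lost without wild-type replicate 1 (adjusted p = 0.0690) or replicate 2 (0.0755). Controls of the paired-end run held 3.59, 1.97, 1.86 and 1.71 CPM, the piRNA mutant 3.90, RNAi mutants 6.88 and 5.13, and double mutants 6.07, 14.9, 4.05 and 5.42. All RNAi and double mutant libraries lay above the controls, with double mutant 2o far above the rest. The piRNA mutant, a single library with *Dicer* SOM/WT, also lay above every control. *Sesn2* rose by 1.73 ± 0.39 in double mutants (adjusted p = 0.00538), and its value in RNAi mutants was 1.38 ± 0.45, not called (adjusted p = 0.0684). That value was called in 5 alternatives, among them DESeq2 (adjusted p = 0.0204) and a term for age (0.00890).

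*Chac1*, which degrades glutathione, was between 1.89 and 3.45 CPM in wild type, 2.91 and 3.79 in *Dicer* ΔMT/ΔMT, and 3.03 and 5.18 in *Dicer* SOM/SOM. Its groups overlapped. The log2 values were 0.47 ± 0.23 in *Dicer* ΔMT/ΔMT, 0.62 ± 0.26 in *Dicer* SOM/SOM, 0.67 ± 0.42 in RNAi mutants and 0.93 ± 0.35 in double mutants, and none was called (adjusted p = 0.208, 0.0961, 0.381 and 0.0761). In double mutants, *Chac1* was at 6.63 and 7.65 CPM in the females of 40 and 35 weeks and at 4.05 and 1.998 CPM in those of 11 weeks, against 3.47, 1.9996, 2.44 and 2.76 CPM in controls. The value was called without double mutant 2 (1.19, adjusted p = 0.00706) and with DESeq2 (adjusted p = 0.0372). In the piRNA mutant, a single library with *Dicer* SOM/WT, *Chac1* was at 4.12 CPM, above every control.

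Of the transcription factors, *Atf4*, the hub of the response, on chromosome 15 from 80255184 to 80257540, held 175, 164 and 176 CPM in wild type and 240, 220, 225 and 262 CPM in *Dicer* ΔMT/ΔMT. *Dicer* SOM/SOM held 143, 188 and 186 CPM. *Dicer* ΔMT/ΔMT lay above both other genotypes without overlap, while *Dicer* SOM/SOM overlapped wild type. *Atf4* rose by 0.46 ± 0.11 in *Dicer* ΔMT/ΔMT (adjusted p = 0.0140), a call lost without wild-type replicate 2 (adjusted p = 0.0613). Its value in *Dicer* SOM/SOM against wild type was 0.01 ± 0.11 (adjusted p = 0.963). The difference between the genotypes, -0.45 ± 0.11, was itself called (adjusted p = 0.0284). That call was lost without *Dicer* ΔMT/ΔMT replicate 1, 2 or 4 or *Dicer* SOM/SOM replicate 1 (adjusted p = 0.0693, 0.05002, 0.0713 and 0.0667). Controls held 130, 115, 135 and 129 CPM, RNAi mutants 211 and 169, and double mutants 177, 228, 136 and 136. All 6 mutant libraries lay above the controls, yet the values 0.58 ± 0.19 and 0.41 ± 0.16 were not called (adjusted p = 0.0767 and 0.0900).

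*Ddit3* encodes CHOP, a transcription factor that ATF4 induces and that promotes cell death under prolonged stress. It lies on chromosome 10 from 127290774 to 127296288, and 68 of its 890 exon bases lie in the antisense gene *Mars*, so reads there are shared. Wild type held 8.49, 9.49 and 11.9 CPM, *Dicer* ΔMT/WT 15.03, and *Dicer* ΔMT/ΔMT 18.8, 15.9, 17.6 and 15.9. *Dicer* SOM/SOM held 15.9, 12.03 and 11.8 CPM and overlapped wild type. The rise in *Dicer* ΔMT/ΔMT was 0.78 ± 0.15 (adjusted p = 0.00574), and the values elsewhere were 0.44 ± 0.16 in *Dicer* SOM/SOM, 0.50 ± 0.19 in RNAi mutants and 0.35 ± 0.16 in double mutants, none of them called (adjusted p = 0.0659, 0.114 and 0.129). *Mars* had 0.12 in *Dicer* ΔMT/ΔMT (adjusted p = 0.647).

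*Atf3*, an early stress-induced repressor, had the opposite sign from *Asns* and *Sesn2* in the 3 groups with *Dicer* SOM/SOM and the same sign in *Dicer* ΔMT/ΔMT. Wild type held 0.739, 0.872 and 0.993 CPM, *Dicer* ΔMT/ΔMT 1.41, 0.938, 1.03 and 1.55, and *Dicer* SOM/SOM 0.409, 0.748 and 0.575. In the paired-end run, controls held 1.30, 1.40, 0.971 and 1.28 CPM, RNAi mutants 0.259 and 0.570, and double mutants 0.566, 0.248, 0.545 and 0.542. All double and RNAi mutant libraries lay below all controls. So did the piRNA mutant, a single library with *Dicer* SOM/WT, at 0.640 CPM. *Atf3* fell by 1.38 ± 0.39 in double mutants (adjusted p = 0.0196), a call lost without double mutant 2o (adjusted p = 0.0512), and its value in RNAi mutants was -1.53 ± 0.50 (adjusted p = 0.0708). In *Dicer* ΔMT/ΔMT the value was 0.51 ± 0.26 and in *Dicer* SOM/SOM -0.57 ± 0.31, neither called (adjusted p = 0.231 and 0.201).

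*Atf5* encodes a relative of ATF4 that governs a mitochondrial stress program, and 82 of its 1993 exon bases lie in the antisense genes *Nup62* and *Il4i1*. Its mean lay between 13.6 and 18.5 CPM in the groups with more than 1 library. All *Dicer* ΔMT/ΔMT libraries lay below wild type (13.6 to 15.7 against 16.2 to 16.7 CPM), while the other groups overlapped theirs. The log2 values against wild type or controls were between -0.17 and 0.11, none called. *Dicer* SOM/SOM replicate 3 stood apart at 26.8 CPM. *Trib3*, a pseudokinase that restrains ATF4, was under 0.5 CPM in every library. It was tested only in the single-end run, where its values of -0.26 ± 0.49 (*Dicer* ΔMT/ΔMT) and -0.92 ± 0.58 (*Dicer* SOM/SOM) were not called (adjusted p = 0.769 and 0.267).

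**Figure D2:**
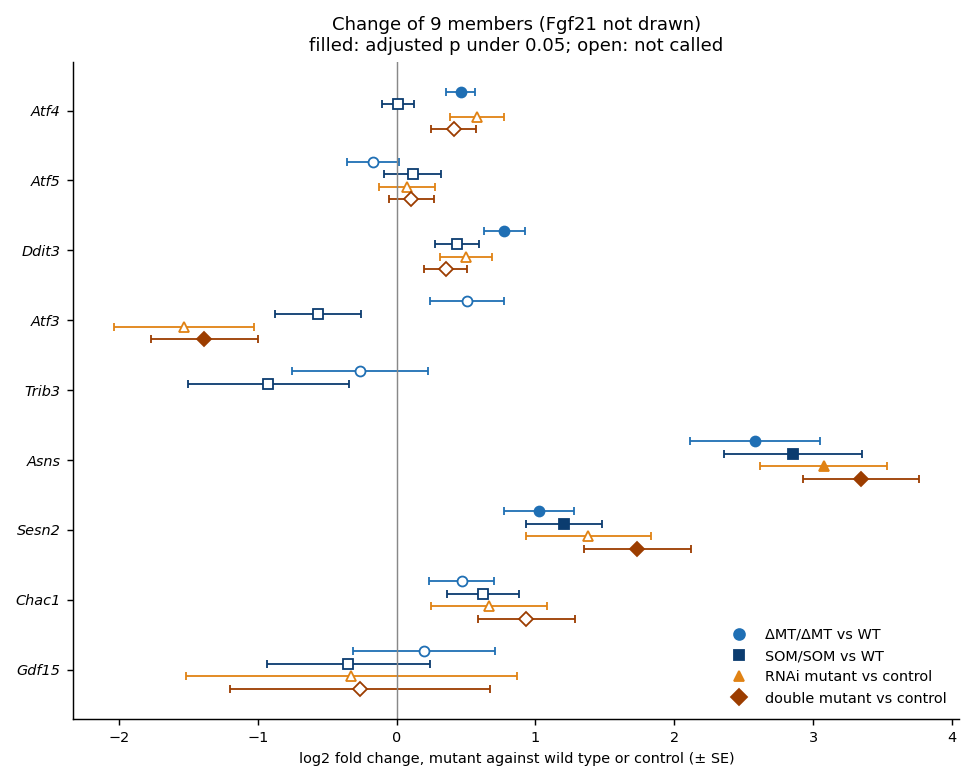
Log2 fold change ± SE of 9 genes against wild type (blue) or controls (orange and brown), filled where the adjusted p of edgeR's quasi-likelihood test is under 0.05 and open elsewhere. *Asns* is filled in all 4 comparisons between 2.58 and 3.35, *Sesn2* in 3 of them, and *Atf3* is to the left of 0 in all but *Dicer* ΔMT/ΔMT. *Fgf21* is left out because its wild-type and control libraries are near 0, and *Trib3* was not tested in the paired-end run.

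Counted over the comparisons, of the 9 genes other than *Fgf21*, 4 were called higher and 0 lower in *Dicer* ΔMT/ΔMT, where 8.06% of 23151 tested genes were called higher and 7.30% lower. Because *Fgf21* of this contrast chose the set, nothing is read from this count. In *Dicer* SOM/SOM 2 of 9 were called higher and 0 lower, where 14.5% of all genes were called higher and 14.2% lower. Between *Dicer* SOM/SOM and *Dicer* ΔMT/ΔMT, 1 of 9 was called lower and 0 higher, beside 3.32% and 4.03% of all genes. In the paired-end run, 9 of the 10 genes passed the filter on low counts. Of these, 2 were called higher in RNAi mutants (*Fgf21* and *Asns*, or 1 of 8 without *Fgf21*), where 7.07% of 20989 genes were called higher and 3.64% lower. In double mutants 3 were called higher and 1 lower (2 and 1 of 8 without *Fgf21*), where 12.3% of genes were called higher and 8.84% lower. The comparisons with wild type share the 3 wild-type libraries and those with controls share the 4 controls, so the counts are not independent of each other.

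Between double mutants and RNAi mutants, which differ in *Mili*, 0 of 9 were called, 0 also had an unadjusted p under 0.05, and DESeq2 called 0. The background was 0.310% of genes called higher and 0.00476% called lower. These groups differ also in age and library set. Both RNAi mutants were under 30 weeks and in the set with much *Gm42418*, while double mutants lay on both sides of each. With age or library set as a term of the fit, 0 of 9 were called as well. The log2 differences of *Asns*, *Sesn2* and *Chac1* were 0.27 ± 0.45, 0.35 ± 0.46 and 0.27 ± 0.43, with RNAi mutants at n = 2. The change with *Dicer* SOM/SOM was also compared between the runs, which differ in read type and in the controls' genotype. By edgeR 0 of 9 genes differed, *Fgf21* left out, and DESeq2 called 0, beside 0.00806% of all genes called in either direction. *Atf4* had the smallest unadjusted p, the change in the single-end run being lower by 0.60 ± 0.23 on the log2 scale (adjusted p = 0.471). The difference for *Asns* was -0.24 ± 0.72 and for *Sesn2* -0.19 ± 0.57.

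The ages that the labels of the paired-end run give could be set against the levels. The study's methods state a single, narrower age range for oocyte donors, which most of these ages lie outside, and the labels were used here. In the double mutants over 30 weeks, *Fgf21* was at 2.02 and 3.82 CPM and in those under 30 weeks at 0.832 and 2.30. *Asns* was at 13.6 and 25.6 CPM over 30 weeks and at 6.398 and 13.8 under 30 weeks. *Sesn2* was at 6.07 and 14.9 CPM over 30 weeks and at 4.05 and 5.42 under it. In each age class every double mutant library lay above every control of that class for these 3 genes. Within the library set with much *Gm42418*, *Fgf21* was at 2.02 and 0.832 CPM in double mutants and at 0 in both controls, and within the other set at 3.82 and 2.30 CPM against 0.0333 and 0. With age or library set as a term of the fit, *Asns* and *Sesn2* were called higher in double mutants as before. So was *Fgf21*, but with almost no counts in the controls its call adds little to the values.

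**Figure D3:**
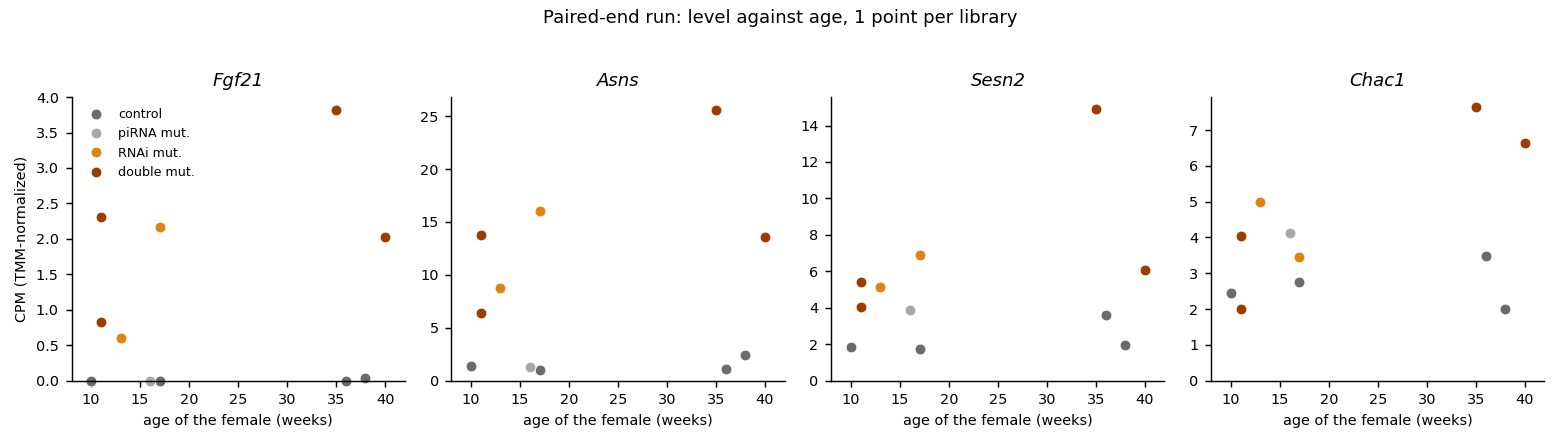
Level of *Fgf21*, *Asns*, *Sesn2* and *Chac1* in TMM-normalized CPM against the age of the female in weeks in the paired-end run, 1 point per library. At both ages the double mutants lie above the controls for *Fgf21*, *Asns* and *Sesn2*, while *Chac1* is above them only in the double mutants of 35 and 40 weeks and in 1 of the 2 of 11 weeks.

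The rest of the pathway was followed with 106 genes in 11 lists, of which 96 were tested in each run. In *Dicer* ΔMT/ΔMT 10 were called higher and 8 lower, with a median log2 value of -0.02 beside 0.01 over all genes, of which 8.06% and 7.30% were called. In *Dicer* SOM/SOM 13 were higher and 13 lower, beside 14.5% and 14.2% of all genes, with a median of -0.02. RNAi mutants had 7 higher and 3 lower, beside 7.07% and 3.64% of all genes, and double mutants 14 higher and 9 lower, beside 12.3% and 8.84%, with medians of -0.02 and 0.02. Set against the 96 tested, the counts lie near the shares of all genes in each comparison. In RNAi mutants the counts were 1 and 0 without replicate 1 and 5 and 0 without replicate 2. In *Dicer* ΔMT/ΔMT they were 7 and 2, 6 and 3, or 9 and 2 without wild-type replicate 1, 2 or 3, and 8 and 2 without *Dicer* ΔMT/ΔMT replicate 2. The calls thus went both ways, with a median near 0 in each. Between double and RNAi mutants 0 were called, 4 had an unadjusted p under 0.05, and DESeq2 called 1.

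At the head of the pathway, 0 of 4 eIF2 kinases was called in any of the 4 comparisons by edgeR, though 1 had an unadjusted p under 0.05 in RNAi mutants and 3 had one in double mutants. The value nearest to a call was that of *Eif2ak3*, the kinase PERK, in RNAi mutants (-1.15 ± 0.36, adjusted p = 0.0588). Of the 8 subunits of eIF2 and its exchange factor eIF2B, 0 were called by edgeR, 2 had an unadjusted p under 0.05 in *Dicer* SOM/SOM and 1 had one in double mutants. DESeq2 called 1 kinase in RNAi mutants (*Eif2ak3*) and 1 in double mutants (*Eif2ak2*, the double-stranded RNA sensor PKR), and of the subunits 2 in *Dicer* SOM/SOM (*Eif2s1* and *Eif2s3x*) and 1 in double mutants (*Eif2s3x*). *Ppp1r15b*, the constitutive subunit that directs the eIF2 phosphatase, fell in all 4 comparisons, by 0.34 ± 0.08 in *Dicer* ΔMT/ΔMT, 0.35 ± 0.09 in *Dicer* SOM/SOM, 0.61 ± 0.15 in RNAi mutants and 0.63 ± 0.12 in double mutants. Its stress-induced partner *Ppp1r15a* had values between -0.06 and 0.03, none called.

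Among the partners of ATF4, *Cebpg* rose from 120 ± 8.57 CPM in wild type to 182 ± 12.1 for *Dicer* ΔMT/ΔMT (adjusted p = 0.00403) and 166 ± 26.1 in *Dicer* SOM/SOM (adjusted p = 0.0102), and in double mutants by 0.36 ± 0.11 (adjusted p = 0.0396). *Cebpb* rose from 1.92 ± 0.190 to 3.37 ± 0.199 CPM in *Dicer* ΔMT/ΔMT (adjusted p = 0.00394). *Nfe2l2*, which encodes the antioxidant regulator NRF2, fell in all 4, by 0.80 ± 0.15, 1.07 ± 0.16, 1.07 ± 0.24 and 0.94 ± 0.19 in the order above.

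Genes of amino acid supply, which are classical ATF4 targets, moved in part. *Psat1*, of serine synthesis, rose from 0.259 ± 0.193 CPM to 1.56 ± 0.413 (*Dicer* ΔMT/ΔMT) and 1.55 ± 0.961 (*Dicer* SOM/SOM), and from 0.222 ± 0.0943 in controls to 4.10 ± 3.12 in double mutants (adjusted p = 4.66e-04). *Shmt2*, of mitochondrial one-carbon metabolism, rose by 1.11 ± 0.28 in *Dicer* SOM/SOM, 0.97 ± 0.19 in RNAi mutants and 0.99 ± 0.16 in double mutants. *Phgdh*, the first enzyme of serine synthesis, fell by 0.56 ± 0.15 in *Dicer* ΔMT/ΔMT (adjusted p = 0.0320). *Mthfd2*, another ATF4 target, had -0.02 to 0.35 and was not called.

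Of the 9 amino acid transporters, 1 rose in *Dicer* ΔMT/ΔMT, 3 in *Dicer* SOM/SOM, 2 in RNAi mutants and 3 in double mutants, and none was called lower. Over all genes 8.06%, 14.5%, 7.07% and 12.3% were called higher, and 1 of 9 is near the first of these. *Slc1a5*, the glutamine carrier, rose in each, from 0.157 ± 0.0852 CPM in wild type to 1.57 ± 0.862 (*Dicer* ΔMT/ΔMT) and 1.62 ± 1.28 (*Dicer* SOM/SOM), and from 0.176 ± 0.175 CPM in controls to 1.13 ± 0.671 and 1.77 ± 0.754 in RNAi and double mutants. *Slc3a2*, the heavy chain of several carriers, rose by 0.73 ± 0.17 in double mutants (adjusted p = 0.00704). *Slc7a11*, the cystine carrier and a well-known ATF4 target, had values between -0.21 and 0.01 and was not called. Of the 12 tRNA synthetases, *Aars* rose in all 4 comparisons (0.71 ± 0.15, 1.14 ± 0.16, 0.73 ± 0.17 and 0.82 ± 0.14), *Gars* in both *Dicer* mutants of the single-end run, and *Iars* fell by 0.63 ± 0.07 in *Dicer* SOM/SOM and by 0.45 ± 0.13 in double mutants.

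Among other ATF4 targets, *Vldlr*, a lipoprotein receptor, rose in all 4 comparisons, by 1.23 ± 0.30, 2.24 ± 0.32, 1.48 ± 0.36 and 1.77 ± 0.31. *Ddit4*, an mTORC1 inhibitor, fell in *Dicer* ΔMT/ΔMT by 0.44 ± 0.13 (adjusted p = 0.0414). *Sqstm1*, an autophagy receptor, rose by 0.43 ± 0.12 in double mutants. Of 16 genes of the other arms of the unfolded protein response, 1 rose and 2 fell in *Dicer* ΔMT/ΔMT, 1 rose and 6 fell in *Dicer* SOM/SOM, 1 rose and none fell in RNAi mutants, and 1 rose and 4 fell in double mutants. Over all genes 8.06%, 14.5%, 7.07% and 12.3% rose, and 7.30%, 14.2%, 3.64% and 8.84% fell, in the same order. The gene that rose was *Dnajb9*, an ER co-chaperone, also called in *Dicer* ΔMT/ΔMT (0.81 ± 0.21) and RNAi mutants (1.06 ± 0.23). *Dnajc3*, another ER co-chaperone, fell by 0.89 ± 0.17 in *Dicer* SOM/SOM and 0.56 ± 0.12 in double mutants. *Hspa5*, the main ER chaperone BiP, had values between -0.17 and -0.02, none called.

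Of 9 genes of mitochondrial stress, *Dele1*, which relays it to an eIF2 kinase, rose by 0.78 ± 0.15 in *Dicer* ΔMT/ΔMT, 1.05 ± 0.16 in *Dicer* SOM/SOM and 0.68 ± 0.19 in double mutants. *Hspa9*, the mitochondrial HSP70, fell by 0.44 ± 0.13, 0.45 ± 0.14, 0.50 ± 0.13 and 0.50 ± 0.10 in the 4 comparisons. Of 9 tested genes of FGF21 and GDF15 signalling, 1 rose and 1 fell in *Dicer* ΔMT/ΔMT, 1 rose and 2 fell in *Dicer* SOM/SOM, and 1 rose in RNAi mutants and in double mutants. Over all genes 8.06%, 14.5%, 7.07% and 12.3% rose, and 7.30%, 14.2%, 3.64% and 8.84% fell, in the same order. These counts lie near those shares. *Pparg*, a lipid-sensing nuclear receptor, fell by 0.32 ± 0.10 and 0.42 ± 0.11 in the 2 single-end mutants, and *Fgfr2*, an FGF receptor, by 0.48 ± 0.12 in *Dicer* SOM/SOM. On the receiving side, *Klb*, the FGF21 co-receptor, was not called (log2 values between -0.82 and 0.88), and neither was *Fgfr1*, its receptor (-0.47 to -0.22). *Kl*, the co-receptor of a related hormone, rose from 4.54 ± 1.08 CPM to 10.1 ± 1.57 (*Dicer* ΔMT/ΔMT) and 18.7 ± 0.914 (*Dicer* SOM/SOM), and from 4.56 ± 0.871 to 17.6 ± 2.97 and 17.1 ± 4.19 in RNAi and double mutants.

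**Figure D4:**
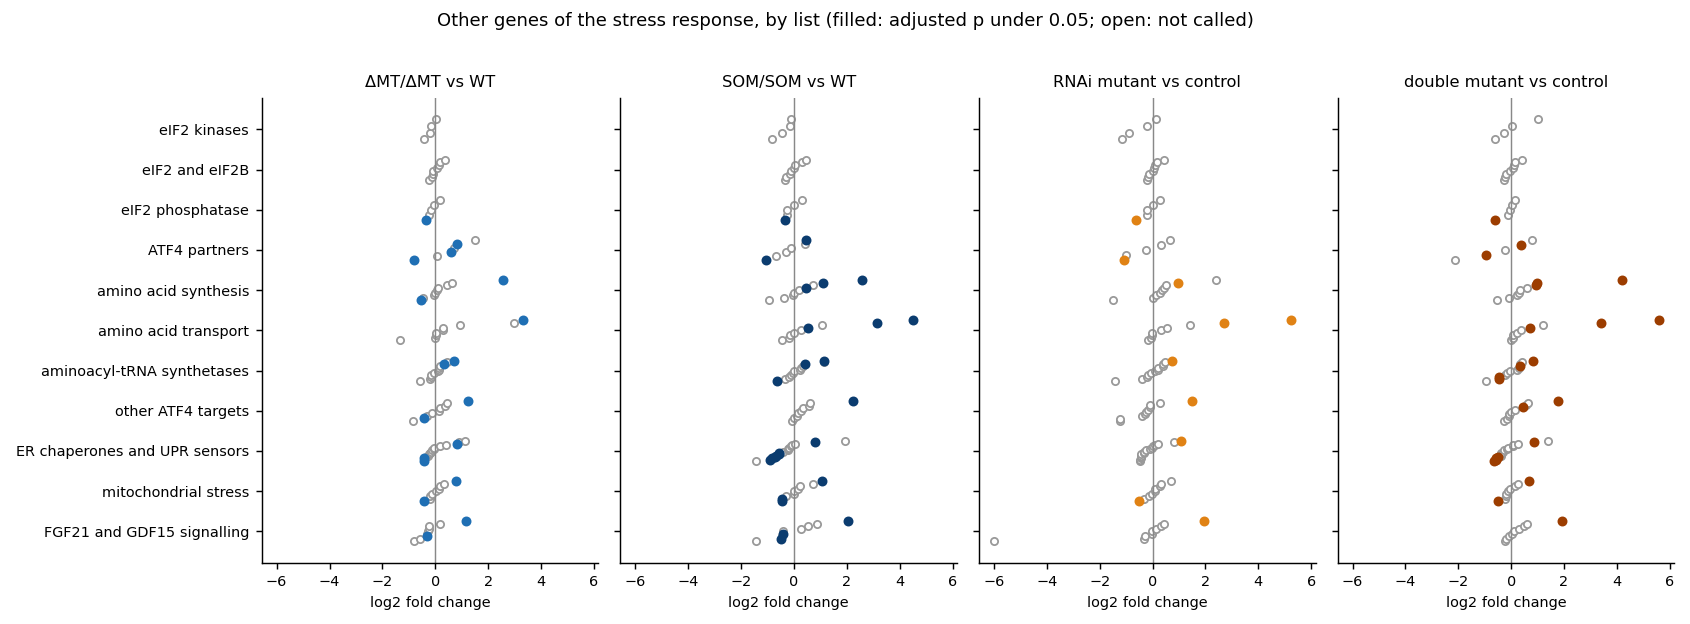
Log2 fold change of the tested genes in 11 lists of the pathway in 4 comparisons, 1 point per gene, filled where the adjusted p is under 0.05. Across the 4 comparisons, most lists have filled points on both sides of 0, but within RNAi mutants no list does. In every comparison, amino acid transport has filled points only to the right and the eIF2 phosphatase list only to the left. The eIF2 kinases and the eIF2 and eIF2B subunits have none.

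Among 17000 genes with a mean of at least 1 CPM in 1 genotype, the pattern over the 11 single-end libraries most like that of *Fgf21* was that of *Dynll1* (Pearson r of log2 CPM = 0.98), *Lmx1a* (0.98) and *Gm15310* (0.98), with r over the 11 paired-end libraries of 0.89, 0.94 and 0.78. *Asns* was at rank 11 (0.97) and *Sesn2* at rank 80 (0.94), with 0.99 and 0.84 in the paired-end run. Far down in the single-end run were *Chac1* (rank 2648, 0.68), *Atf4* (rank 3870, 0.55), *Ddit3* (rank 3908, 0.55), *Atf5* (rank 5840, 0.31) and *Atf3* (rank 7444, 0.09). In the paired-end run r was 0.78 for *Atf4*, the same as for *Gm15310*, 0.76 for *Ddit3*, 0.48 for *Chac1*, 0.31 for *Atf5* and -0.85 for *Atf3*. The libraries share the genotype contrast and their depth, so r is a description of likeness. *Dynll1* was at 84.1 CPM in wild type, 201 (*Dicer* ΔMT/ΔMT) and 219.5 (*Dicer* SOM/SOM).

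Within 20 kb of *Fgf21*, 5 other genes are annotated. *Fut1*, whose nearest exon lies 2116 bases away on the other strand, had at most 0.33 counts in wild type and 3 to 41.3 in *Dicer* ΔMT/ΔMT, 26 in *Dicer* ΔMT/WT and 2 to 27 in *Dicer* SOM/SOM. It was called higher in both homozygous mutants (adjusted p = 0.0115 and 0.00546). As it passed the filter on low counts only through these mutants, the calls add little to the counts. In the paired-end run *Fut1* was not tested, with 3 to 8 counts in double mutants and 0 to 3 in controls. *Izumo1*, 6321 bases away, had 0 counts in wild type and up to 11.2 and 12 in the single-end mutants, and in double mutants 5 to 33 counts against 0 to 5 in controls (adjusted p = 0.0353). In the paired-end run *Izumo1* passed the filter on low counts only through the double mutants, so its call adds little to the counts. *Rasip1*, 11998 bases away, was not called, and *Gm31479* and *Gm45437* stayed at 2 counts or fewer. None of these genes shares an exon base with *Fgf21*.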

How the data were processed

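RNA was sequenced from GV oocytes in 22 libraries of 2 runs, grouped by the genotype in the sample labels. The authors aligned reads (STAR, mouse build GRCm38), and featureCounts gave the counts per GENCODE gene, ignoring strand and dividing reads among places and overlapping genes. The submitters' processing notes name STAR 2.5.3a. The deposited values are expected counts, raw and not normalized, and were rounded before testing. The unit of levels in the text, CPM, was computed here. Symbols were matched for 52403 of 52636 gene IDs.

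Each run was fitted apart with edgeR 4.0.16 (R 4.3.3), using TMM normalization, a filter (minimum count 10, minimum total 15) and the quasi-likelihood test. Genes were called at a Benjamini-Hochberg adjusted p of 0.05. The fit of the paired-end run included the piRNA mutant, and *Dicer* ΔMT/WT was left out of the fits. Fold changes had edgeR's default prior count, and 2 counts were added for log2 CPM. Alternatives were DESeq2 1.42.0, RLE size factors, no filter, only the compared groups, a replicate block, a term for age, each library left out, and, added after the data were seen, a term for the library set split at 1000 CPM of *Gm42418*. In transcripts of GENCODE M21, blastn 2.17.0 found no other gene at 95% identity over 50% of a transcript of any of the 10 genes. The fits were tested on simulated data. The 10 genes and all lists were chosen with earlier results of these data known. Named in the text are all 10 genes, up to 2 called genes with the largest rise and 2 with the largest fall of each list (mean of at least 1 CPM), neighbours of *Fgf21* within 20 kb, the 3 genes most like it, and *Dicer1*. Some list genes that this rule gives were left out of the Results. Of these, *Slc7a3* and *Nars* rose, and *Tars*, *Ern1*, *Pdia4*, *Pdia6*, *Hsp90b1* and *Afg3l2* fell. Other list genes (*Eif2ak2*, *Eif2ak3*, *Eif2s1*, *Eif2s3x*, *Ppp1r15a*, *Mthfd2*, *Slc7a11*, *Mars*, *Hspa5*, *Klb*, *Fgfr1*, *Cd68*, *Kdr*) were named after their values were seen.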

Additional observations from a re-analysis of the deposited data

Results flagged for a closer look

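In 30 combinations of gene and group with 4 libraries, 3 had 1 library far from the others by Dixon's ratio at the 95% level, where chance gives about 1 in 20. *Fgf21* had 1 count (0.0333 CPM) in control 2o, under the 3 counts taken as the limit of detection, and 0 in the other controls, so that the ratio is 1 by construction. *Sesn2* in control 1o was at 3.59 CPM, against 1.71 to 1.97 CPM in the others (ratio 0.863). *Atf3* in double mutant 2o was at 0.248 CPM, against 0.542 to 0.566 CPM in the others (ratio 0.923).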

How the results depend on the processing

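For the 10 genes, the calls of *Asns* in 4 comparisons held under every alternative, and no value changed sign among results called at least once. The calls of *Fgf21* in the paired-end run held too, but with almost no counts in the controls this adds little to its values. Leaving out 1 library gave 2 to 4 calls among 9 genes in *Dicer* ΔMT/ΔMT, 2 to 3 in *Dicer* SOM/SOM, 0 to 2 between them, 2 to 3 in RNAi mutants, 3 to 6 in double mutants and 0 between double and RNAi mutants. For the 96 list genes it gave 9 to 13, 22 to 31, 2 to 9, 1 to 14, 17 to 24 and 0 calls. The lowest counts of list genes in *Dicer* ΔMT/ΔMT came without wild-type replicate 1 or 2 (9 each), then without *Dicer* ΔMT/ΔMT replicate 2 (10) and wild-type replicate 3 (11), and those in RNAi mutants without replicate 1 (1) or 2 (5), where the lone RNAi library was taken to vary like the other groups. Against *Dicer* ΔMT/ΔMT, *Dicer* SOM/SOM had 9 list genes without its replicate 2, 7 without its replicate 1 and 2 without any *Dicer* ΔMT/ΔMT library. The log2 value of *Fgf21* in double mutants lay between 7.24 and 9.28, the last without control 2o. Between *Dicer* SOM/SOM and *Dicer* ΔMT/ΔMT, DESeq2 called 2 of the 9 genes and 13 list genes, and a fit of only the compared groups 0 and 2. In RNAi mutants, DESeq2, no filter and only the compared groups each called 4 genes, and DESeq2 17 and the library-set term 19 list genes. Only the compared groups gave 29 list genes in *Dicer* ΔMT/ΔMT. Between double and RNAi mutants, DESeq2 and no filter each called 1 list gene. The causes were not tested.

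Same-numbered libraries deviated together little (r from -0.07 to 0.18), which cannot show whether the numbers pair them. The highest r were between double mutants and controls, 0.177 for number 2 and 0.135 for 1o. Double mutants and controls numbered 1o, 2o and 2 were in the same library set by *Gm42418*, while double mutant 2 and RNAi mutant 2 were not. With the replicate block, list calls in *Dicer* ΔMT/ΔMT fell from 18 to 10, and the calls of *Atf4* in *Dicer* ΔMT/ΔMT (adjusted p = 0.0613) and against *Dicer* SOM/SOM (0 of 9 called) and of *Atf3* in double mutants (adjusted p = 0.114) were lost. RNAi mutants and controls share 1 number, so no paired fit was made. The values of *Trib3*, *Gdf15* and, in wild type and controls, *Fgf21* rest on few counts. So do those of *Slc1a5* (0.157 and 0.176 CPM) and *Psat1* (0.259 and 0.222 CPM) in wild type and controls.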
